A study of Mus musculus with 20 samples.

Results

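Ion channels and neurotransmitter receptors were read by 40 probes of 36 mouse genes on the arrays described here. The members are the probes with a single gene symbol that starts with one of the stems Kcn, Scn, Cacn, Hcn, Clcn, Clic, Trpc, Trpm, Trpv, Vdac, Gria, Grin, Grik, Grm, Gabr, Glra, Chrn, Chrm, Htr, Gja or Gjb, or that matches P2rx or P2ry, and that have a value on 2 or more arrays in every region. They are 40 of the 12356 probes that met the same rule on values, out of 15245 probes on the array. The stems name 43 probes of 39 genes, and 3 of these missed the rule on values. Kcnh1, a voltage-gated potassium channel, had a value on 5 arrays, from -0.34 to 0.31 with a median of -0.12. Kcne3, an accessory subunit, and Cacna2d1, a calcium channel auxiliary subunit, are empty on all 20 arrays. Of the 23 stems, 7 had no member, namely Hcn, Gria, Grik, Grm, Glra, Chrm and P2ry.

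The study set amplified RNA from mice with a null mutation against pooled wild-type RNA of the same brain region on 2-channel cDNA arrays. The regions were the cortex, the hippocampus, the cerebellum and the brain stem-diencephalon. Each of these 4 had 5 arrays, of which 2 were dye swaps that held the null RNA in channel 2. Averaging the arrays of one region and one number gave 13 replicates, 4 in cortex and 3 in each other region. Cortex replicate 4 is a swapped array without a number in its label, and it may hold the same extract as a numbered array. The labels name no strain, age, sex or allele, and they leave unsaid whether the numbers stand for separate animals. The p-values below therefore measure only how far these samples spread, and that spread may be technical. Every ratio is given as null over wild type, a direction that is only likely, since the sources used here do not state which channel the deposited ratios put on top. With the other order all signs below would turn. The deposited log ratios were read as log2, a base that these sources do not state either.

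Ion channels are pores made of membrane proteins, often joined by auxiliary subunits that set how much channel reaches the surface and how it gates. In neurons, voltage-gated sodium and calcium channels carry the rising currents of the action potential and of transmitter release, potassium channels carry the currents that repolarise the cell, and ligand-gated receptors turn released transmitter into current. Connexins form gap junctions between cells, VDAC proteins form pores in the outer mitochondrial membrane, and several Clcn proteins exchange chloride for protons in endosomes and lysosomes.

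The name of the group fits its members in part. By role, 17 genes with 20 probes code for pore-forming subunits, TRP channels and VDAC included, 5 genes with 6 probes belong to the Clcn and Clic families, 4 genes code for auxiliary subunits, 3 for ligand-gated channels and 3 for connexins. The remaining 4 genes share only the letters of their symbols with the families. Scnm1 codes for a splicing factor, Htra2 for a mitochondrial protease, Trpc4ap for an adaptor protein, and Grina for a membrane protein that is no subunit of the NMDA receptor. The neurotransmitter receptors were thus 3 genes, Gabra3, Chrna5 and P2rx4, with no glutamate, glycine, muscarinic or serotonin receptor among them.

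Features of 2 kinds in the arrays bear on the values below. The swapped arrays of cerebellum number 1 and of brain stem-diencephalon number 2 were near copies, with a correlation of 0.995 over 6748 probes against 0.743 for the next highest of the 190 pairs, and 22 members have values on them. They are called the repeated array below. The main fit kept both copies, in cerebellum replicate 1 and in brain stem-diencephalon replicate 2. The same measurement may thus count in 2 replicates, which the standard errors and replicate counts do not allow for. The arrays of number 1 also stood apart: among unswapped arrays the median correlation was 0.556 between arrays of number 1, 0.588 between the other arrays, and 0.254 between the 2 sets. The Y-linked gene Eif2s3y lay between -1.36 and -0.44 on the 6 arrays of number 1, between 0.93 and 1.64 on the 11 other arrays with a value, and at 1.71 on the repeated array, so number 1 and the other arrays lay on opposite sides of 0. The repeated array is left out of these comparisons by number. Any part of these differences in the results below was not tested beyond the values given with and without these arrays. Ratios cannot show whether markers of a labelled region or cell type were present. In the mean of the regions, Hbb-b1, a beta globin, was higher (0.56) and Pecam1, an endothelial adhesion protein, lower (-0.44). Ttr, a choroid plexus transport protein, was called lower (-0.31), but its regional ratios had opposite signs, at 0.68 in hippocampus against -1.05 in cerebellum, -0.70 in cortex and -0.19 in brain stem-diencephalon. Of the brain stem and diencephalon markers, Th, the first enzyme of catecholamine synthesis, was higher (0.67), while Tph2 (-0.16) and Trh (-0.05) did not pass. By region, Th was called in cerebellum alone (1.58, adjusted p = 0.001 by limma). It read 0.47 in cortex, 0.33 in hippocampus and 0.31 in brain stem-diencephalon (adjusted p = 0.515 by limma in the last). Of 7 cerebellar probes, 1 probe of Calb1 was higher in the mean of the regions (0.23). Its other 3 probes (-0.01 to 0.07), Cbln1 (-0.24), Pcp2 (-0.08) and Car8 (0.13) did not pass. The markers tested for neurons (1 of 7, Nefl at -0.05), astrocytes (2 of 6) and oligodendrocytes (1 of 7, Mbp at -0.04) did not pass the test in this mean. Nor did those for microglia (3 of 6) and forebrain (1 of 5, Ppp1r1b at -0.19). By region, Ppp1r1b was called lower in hippocampus (-0.63, adjusted p = 0.048 by limma) and read 0.23 in cortex.

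In the mean of the 4 regions, 7 of the 40 members passed an adjusted p of 0.05 in limma's moderated test, 5 of them higher in the null mutants and 2 lower. This share of 17.5% lies near the 21.1% of all 12336 probes tested that passed (11.2% higher and 9.89% lower), so the count is not a result about channels and receptors. The 5 higher probes read Trpm7, a channel fused to a kinase that conducts magnesium and calcium, the potassium channels Kcnq1 and Kcnd2, and the mitochondrial pores Vdac2 and Vdac3. The 2 lower probes read the potassium channels Kcnj12 and Kcnh3. All 7 are probes of pore-forming subunits, of which there are 20 (35%), and the other 20 probes gave no call. The grouping by role was not among the planned classes, and the difference between these roles was not tested. In bulk tissue, fewer cells of a type and less RNA per cell cannot be told apart.

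The sizes were small. The median ratio of the 40 members was 0.01 on the log2 scale, as for all probes (0.01), and the median absolute ratio was 0.12 against 0.11. Above 0 lay 22 of 40 members, or 55.0%, against 53.0% of all probes. The largest ratio of a member was 0.36 in size, and 5.64% of all probes lay beyond it. No member passed 1.5-fold in the mean of the regions, against 0.867% of all probes. At an unadjusted p under 0.05 there were 18 members (45.0%), against 36.0% of all probes.

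**Figure D1:**
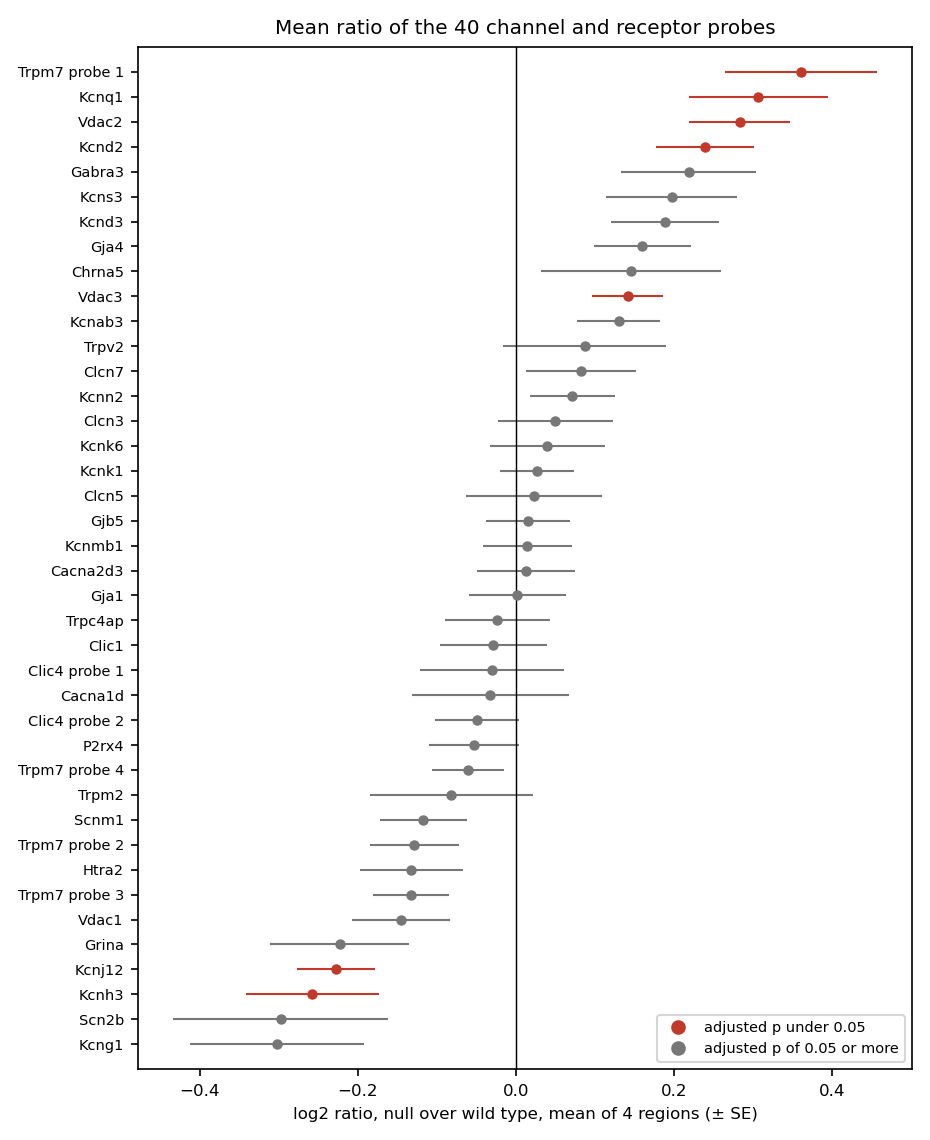
Mean log2 ratio of the 4 regions, null over wild type, for each of the 40 probes (points) with its standard error (bars), in the order of the ratio; red points have an adjusted p under 0.05. The 7 red points lie between -0.26 and 0.36, and some larger ratios, such as Kcng1 and Scn2b, have wider bars and are grey.

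Single replicates and arrays decided several of these calls. The number of members called was 2 without cortex replicate 4, namely Kcnj12 and Kcnq1, while 8.06% of all probes were called. It was 3 without replicate 2 of hippocampus, of cerebellum or of brain stem-diencephalon (12.9% of all probes in each case). It was 4 without cerebellum replicate 1 (18.3%) and 11 without hippocampus replicate 1 (24.7%), so the count over all probes moved with that of the members. Without the repeated array, 3 members passed the test (Kcnj12, Trpm7 and Vdac2) and the share of all probes was 13.4%. Over the 13 settings that left out 1 replicate, Kcnj12 was called in 13, Vdac2 in 12, Kcnd2 in 11, Kcnq1 in 10, the Trpm7 probe in 9, Vdac3 in 4 and Kcnh3 in 3. Regions may share animals, in which case the errors and p-values of this mean are too small.

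**Figure D2:**
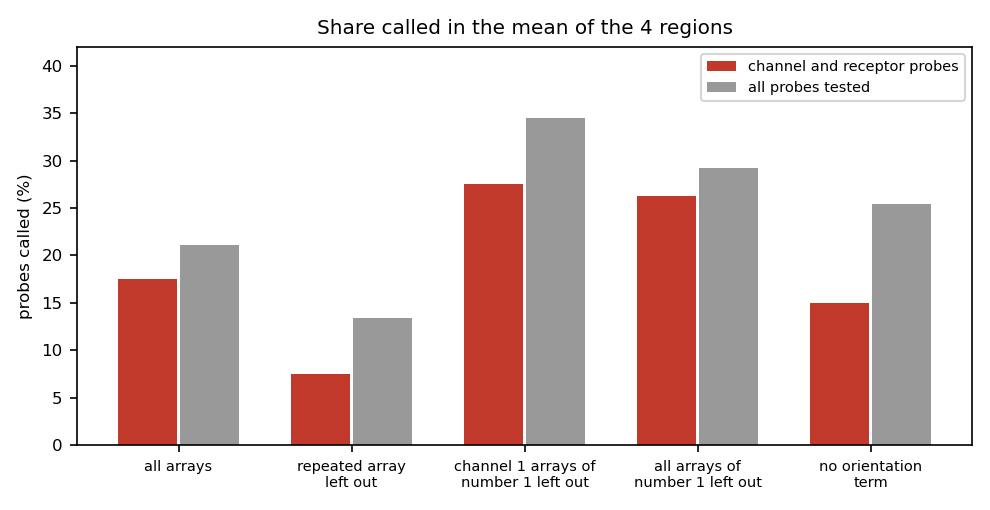
Bars from 0 give the share of probes, in percent, with an adjusted p under 0.05 in the mean of the 4 regions, for channel and receptor probes (red) and for all probes tested (grey), with all arrays and under 4 alternatives. The red bar is the lower of the pair in each alternative shown, at 17.5% against 21.1% with all arrays and 7.5% against 13.4% without the repeated array.

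Trpm7 had 4 probes, and they did not share a direction. For the probe that passed the test, called probe 1, the replicates read -0.01, 0.71, 0.89 and 0.74 in cortex, -0.18, 0.61 and 0.41 in hippocampus, 0.07, 0.63 and 0.54 in cerebellum, and -0.08, 0.26 and 0.28 in brain stem-diencephalon. In each region replicate 1 was the lowest, near or below 0, and all other replicates lay above 0. Cerebellum replicate 1 was near 0 through the repeated array (-0.15), as its unswapped array read 0.28. In brain stem-diencephalon replicate 2 the repeated array read -0.13 and the unswapped array 0.64. The mean ratio was 0.36 ± 0.10 (SE, n = 13), or 1.28-fold, above 0 in 10 of 13 replicates (adjusted p = 0.018). It was 0.53 when all arrays of number 1 were left out (adjusted p = 0.000175, with 0.000175 to 0.123 over the alternatives). Over arrays, number 1 ran from -0.24 to 0.28 with a median of -0.06, and the others from 0.28 to 0.89 with a median of 0.63.

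The other 3 Trpm7 probes lay below 0 and did not pass the test. Probe 2 read -0.13 ± 0.06 (n = 12, adjusted p = 0.123), probe 3 read -0.13 ± 0.05 (n = 12, adjusted p = 0.064) and probe 4 read -0.06 ± 0.05 (n = 13, adjusted p = 0.369). Probe 2 was between -0.30 and -0.21 in all 4 cortex replicates, where probe 1 had its 3 highest values. The files do not say which stretch of the transcript a probe reads. When the probes were averaged per gene, Trpm7 was not called, so its direction rests on the choice of probe.

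**Figure D3:**
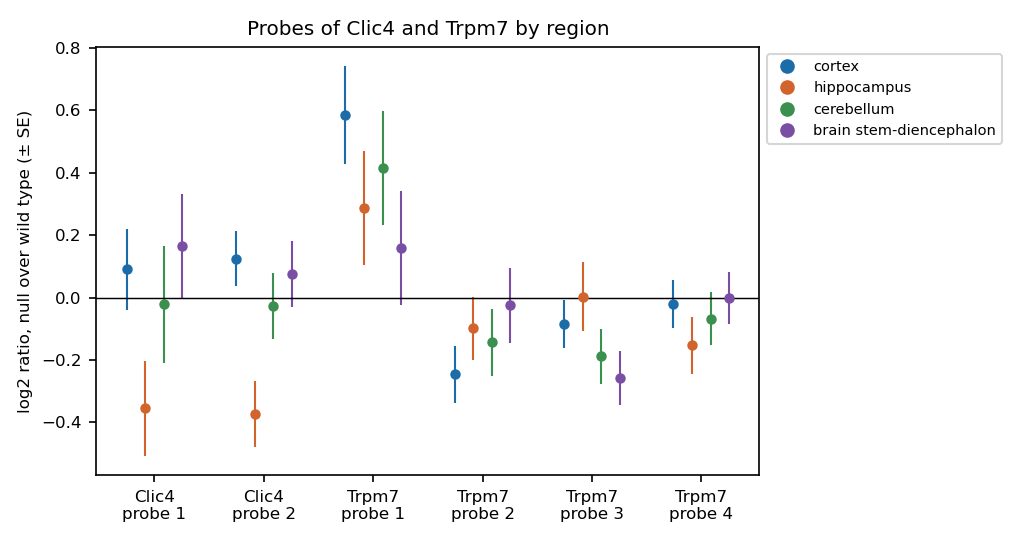
Log2 ratio, null over wild type, of the 2 probes of Clic4 and the 4 probes of Trpm7 in each region (points, coloured by region) with standard errors (bars). The Clic4 probes lie together, with hippocampus lowest in both, whereas probe 1 of Trpm7 lies above 0 in all 4 regions and its other probes lie at or below 0.

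Among the 12 potassium channel genes, each with 1 probe, 2 were higher and 2 lower, and the ratios ran from -0.30 to 0.31 with a median of 0.06. Kcnd2 codes for a pore-forming subunit of the A-type current in dendrites. Its replicates read -0.17, 0.40, 0.51 and 0.37 in cortex, 0.17, 0.48 and 0.46 in hippocampus, 0.18, 0.40 and 0.23 in cerebellum, and -0.09, 0.13 and -0.01 in brain stem-diencephalon. With the repeated array kept, replicate 1 was again the lowest of each region, and brain stem-diencephalon overlapped 0. That array read 0.41 and entered cerebellum replicate 1 and brain stem-diencephalon replicate 2. Their unswapped arrays lay below 0, at -0.05 and -0.16. The mean ratio was 0.24 ± 0.06 (SE, n = 13), or 1.18-fold (adjusted p = 0.016), and it lay above 0 in 10 of 13 replicates. Without the repeated array Kcnd2 was not called. Both orientations had a median above 0, at 0.11 over 11 unswapped arrays and 0.41 over 7 swapped arrays with the repeated array counted once. Kcnd3, which codes for a related A-type subunit, read 0.19 ± 0.07 (n = 13) and did not pass the test (adjusted p = 0.063).

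Kcnq1 codes for a slowly activating voltage-gated channel best known from heart and inner ear. Its replicates read -0.16, -0.15, 0.23 and 0.82 in cortex, -0.12, 0.21 and -0.92 in hippocampus, 0.65, 0.11 and -0.63 in cerebellum, and 0.37, 0.88 and -0.28 in brain stem-diencephalon. Values on both sides of 0 occurred in every region. The fitted mean of 0.31 ± 0.09 (SE, n = 13, adjusted p = 0.024), or 1.24-fold, had its sign in only 7 of 13 replicates, and it depended on the term for orientation. On 12 unswapped arrays the probe ran from -0.92 to 0.23 with a median of -0.23, on 6 swapped arrays from 0.41 to 1.82 with a median of 0.74, and the 2 sets did not overlap. Without the orientation term the ratio was 0.07 (adjusted p = 0.720), and without the repeated array it was 0.19 (adjusted p = 0.110). Adjusted p over the alternatives ranged from 0.015 to 0.720.

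Kcnj12, an inward rectifier that holds the resting potential, was one of the 2 lower channels. Its replicates read 0.18, -0.19, -0.15 and -0.48 in cortex, -0.15, -0.32 and 0.16 in hippocampus, -0.25, -0.30 and 0.01 in cerebellum, and -0.12, -0.29 and 0.02 in brain stem-diencephalon. The lowest values of each region came from replicates that include a swapped array. In cerebellum replicate 1 and brain stem-diencephalon replicate 2 this was the repeated array (-0.71 and -0.70). Their unswapped arrays lay above 0, at 0.20 and 0.12. The mean was -0.23 ± 0.05 (SE, n = 13), or 1.17-fold lower, below 0 in 9 of 13 replicates (adjusted p = 0.006). The orientations again did not overlap, with -0.15 to 0.31 and a median of 0.09 on 12 unswapped arrays, and -0.71 to -0.44 and a median of -0.53 on 7 swapped arrays. Without the orientation term it read -0.14 and did not pass the test (adjusted p = 0.097, with 0.000592 to 0.097 over the alternatives).

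Kcnh3 codes for a voltage-gated channel of the ether-a-go-go family in forebrain neurons. It read 0.08, -0.60 and -0.19 in cortex replicates 1 to 3, -0.32, -0.30 and -0.20 in hippocampus, 0.11, -0.08 and -0.12 in cerebellum, and -0.06, -0.04 and -0.14 in brain stem-diencephalon, with no value in cortex replicate 4. All 3 hippocampal replicates lay below 0, and those of brain stem-diencephalon lay close to it. The mean was -0.26 ± 0.08 (SE, n = 12), or 1.2-fold lower, below 0 in 10 of 12 replicates (adjusted p = 0.046). Of the 7 calls it was nearest the threshold, and it was lost without the orientation term (-0.16, adjusted p = 0.060) and without the repeated array (adjusted p = 0.058), over alternatives from 0.012 to 0.282.

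The orientation of the arrays was therefore set beside every member. Over the 36 members with enough arrays of both kinds, swapped and unswapped values did not overlap in 4 (11.1%), Kcnj12, Kcnq1, the connexin Gjb5 and probe 3 of Trpm7, against 5.37% of 11161 probes. The medians of both orientations lay on one side of 0 in 18 of these 36 members, against 52.9% of all probes. For 5 of the 7 called probes they did, Kcnd2, Kcnh3, Vdac2, Vdac3 and Trpm7 probe 1, and for Kcnq1 and Kcnj12 they lay on opposite sides.

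**Figure D4:**
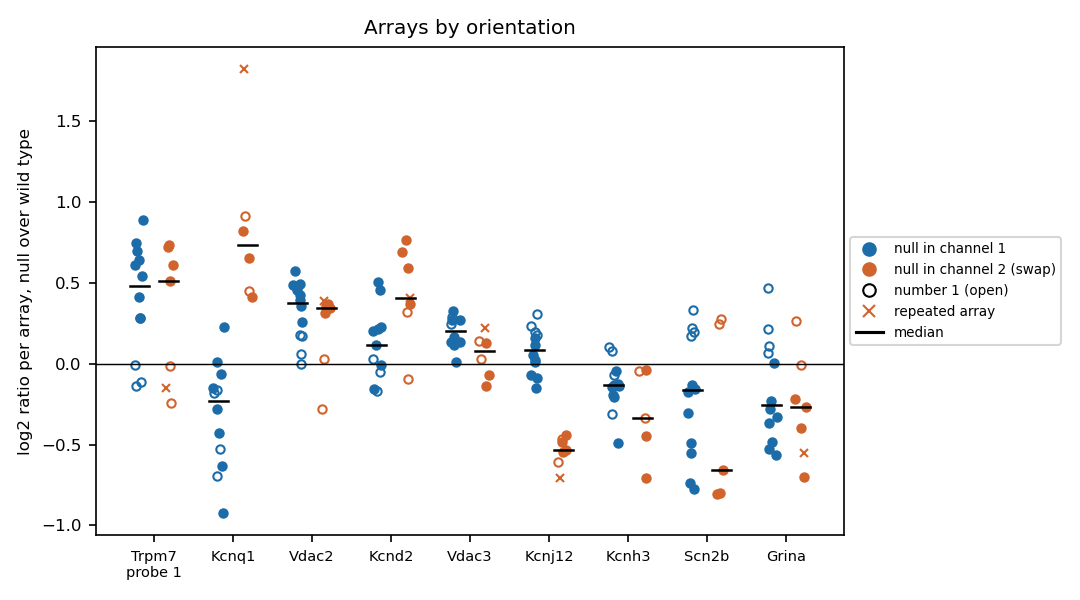
Log2 ratio per array, null over wild type, for the 7 called probes and for Scn2b and Grina, with unswapped arrays in blue, swapped arrays in orange, arrays of number 1 open, the repeated array as a cross drawn once, and medians as black lines. Blue and orange separate fully in Kcnq1 and Kcnj12, and open points lie apart from filled ones in Vdac2 and Scn2b.

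Of the other potassium channel genes, none passed the test in the mean of the regions. Kcng1, a silent subunit that modifies the channels it joins, had the lowest ratio of all members at -0.30 ± 0.11 (n = 12, adjusted p = 0.068). Kcns3, another silent subunit, read 0.20 (adjusted p = 0.109) and Kcnab3, an auxiliary beta subunit, read 0.13 with its sign in 12 of 13 replicates (adjusted p = 0.091). The calcium-activated channel Kcnn2 (0.07), the 2-pore-domain potassium channels Kcnk6 (0.04) and Kcnk1 (0.03), and the auxiliary subunit Kcnmb1 (0.01) lay near 0.

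The mitochondrial pores were the class with the largest share of calls, 2 of 3 genes, which is too few genes to compare with the background. Vdac2 read 0.18, 0.35, 0.58 and 0.36 in cortex, -0.11, 0.43 and 0.42 in hippocampus, 0.19, 0.40 and 0.36 in cerebellum, and 0.10, 0.44 and 0.26 in brain stem-diencephalon. All replicates but hippocampus replicate 1 lay above 0, and replicate 1 was the lowest in every region. Cerebellum replicate 1 lay above 0 through the repeated array (0.39), as its unswapped array read 0. The mean was 0.28 ± 0.06 (SE, n = 13), or 1.22-fold, above 0 in 12 of 13 replicates (adjusted p = 0.008). It was called in every alternative tried other than leaving out 1 replicate, and in 12 of the 13 settings that did so.

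Vdac3 was higher by less. Its replicates read 0.24, 0.05, 0.13 and -0.14 in cortex, 0.16, 0.33 and 0.14 in hippocampus, 0.22, 0.20 and 0.12 in cerebellum, and 0.14, 0.12 and 0.27 in brain stem-diencephalon. Of the replicates, only cortex replicate 4, the unnumbered swapped array, lay below 0. Among single arrays, the swapped array of cortex number 2 did too (-0.07). Cerebellum replicate 1 of Vdac3 was the repeated array alone (0.22). The same array entered brain stem-diencephalon replicate 2, whose unswapped array read 0.01, so the replicate count below uses it in 2 replicates. The mean was 0.14 ± 0.04 (SE, n = 13), or 1.10-fold, above 0 in 12 of 13 replicates (adjusted p = 0.037). It was not called without the repeated array (0.11, adjusted p = 0.179) nor without the arrays of number 1 (0.10, adjusted p = 0.299), over alternatives from 0.022 to 0.299. Vdac1, the third gene of this family, had the opposite sign at -0.14 ± 0.06 (n = 13), below 0 in 11 of 13 replicates, and did not pass the test (adjusted p = 0.110). Without the orientation term Vdac1 was called lower (adjusted p = 0.016).

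**Figure D5:**
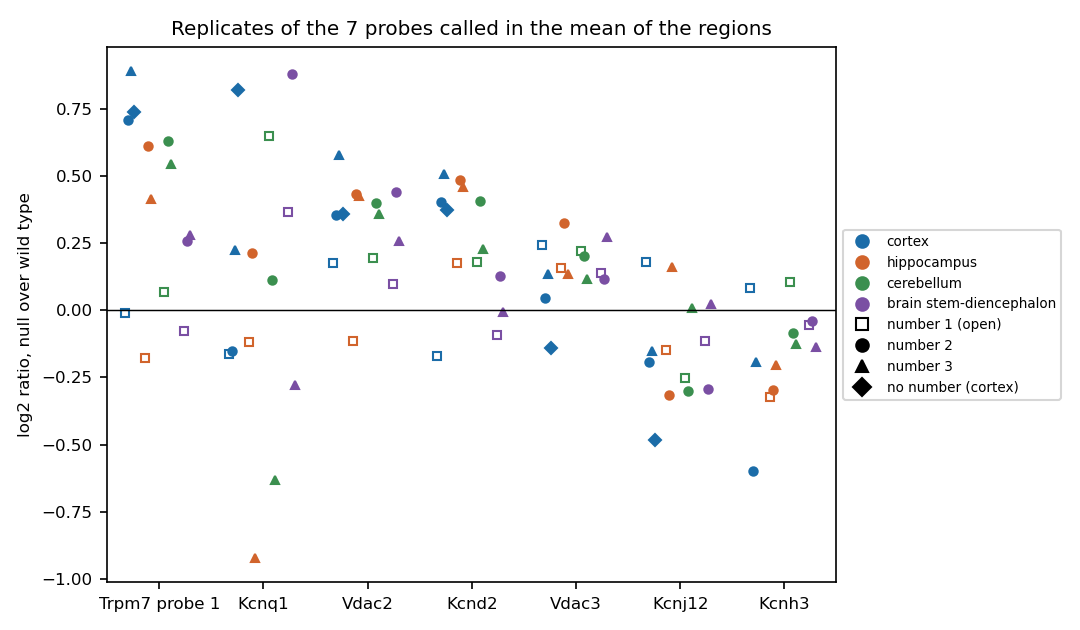
Log2 ratio, null over wild type, of each replicate for the 7 called probes, coloured by region, with open squares for number 1, filled circles for number 2, triangles for number 3 and diamonds for the unnumbered cortex array. The repeated array is averaged into the points. Open squares are the lowest point of each region in Vdac2, Kcnd2 and probe 1 of Trpm7, and the points of Kcnq1 spread from -0.92 to 0.88.

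The sodium channel stem gave Scn2b, an auxiliary beta subunit of voltage-gated sodium channels, and Scnm1. With all arrays Scn2b did not pass the test of the fit without a term for number, and its values split by number. It read 0.22, -0.49, -0.74 and -0.81 in cortex, 0.30, -0.68 and -0.77 in hippocampus, 0.20, -0.48 and -0.13 in cerebellum, and 0.21, -0.15 and -0.17 in brain stem-diencephalon. Replicate 1 lay above 0 and every other replicate below 0 in all 4 regions. The 6 arrays of number 1 ran from 0.17 to 0.33 and the 11 others from -0.81 to -0.13. The mean was -0.30 ± 0.14 (SE, n = 13, adjusted p = 0.131). Without the arrays of number 1 it was -0.53 (adjusted p = 0.000589, over alternatives from 0.000589 to 0.742).

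Scn2b was one of 2 members, of 36 compared, whose values on the arrays of number 1 did not overlap those on the other arrays (5.56%, against 3.06% of 11176 probes). The other was Vdac2, with -0.28 to 0.18 on number 1 and 0.26 to 0.58 on the others. Grina, which codes for a membrane protein with a role in calcium balance, moved with the number too, with a median of 0.16 on number 1 and -0.35 on the others. It read -0.22 ± 0.09 with all arrays (n = 13, adjusted p = 0.083) and -0.35 without those of number 1 (adjusted p = 0.005). Kcng1 had medians of 0.21 and -0.28 and was called without number 1 (-0.41, adjusted p = 0.006, over alternatives from 0.000435 to 0.464). Scnm1 read -0.12 (adjusted p = 0.143) and did not pass.

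The calcium channel probes showed no call. Cacna2d3, an auxiliary alpha2delta subunit, read 0.01 ± 0.06 (n = 13), and Cacna1d, the pore of an L-type channel, read -0.03 ± 0.10 (n = 9). Beyond Trpm7, the TRP probes gave Trpv2, a channel of neurons and immune cells (0.09 ± 0.10, n = 10), Trpm2, a channel opened by ADP-ribose (-0.08 ± 0.10, n = 7), and Trpc4ap (-0.02 ± 0.07, n = 13). None of these passed the test, and Trpm2 had the fewest values of all members, on 9 arrays.

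The chloride group held no call either, with ratios from -0.05 to 0.08 over its 6 probes. The endosomal and lysosomal proteins Clcn7 (0.08), Clcn3 (0.05) and Clcn5 (0.02) and the intracellular channel family member Clic1 (-0.03) lay within 0.10 of 0. Clic4 was the other gene with several probes, and here they agreed by region. In hippocampus the replicates of probe 1 read -0.50, -0.32 and -0.56 and those of probe 2 read -0.54, -0.28 and -0.41, all below 0. In cortex they read -0.80, 0.37, 0.01 and 0.47 for probe 1 and 0.05, 0.46, -0.17 and 0.16 for probe 2, on both sides of 0. The fitted hippocampal ratios were -0.36 and -0.37, neither of which passed the test (adjusted p = 0.329 and 0.158).

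The ligand-gated receptors gave no call. Gabra3, an alpha subunit of the GABA-A receptor, had a fitted ratio of 0.22 ± 0.09 (n = 11, adjusted p = 0.089), but only 5 of its 11 replicates lay above 0. Its median was -0.11 on 10 unswapped arrays and 0.53 on 4 swapped arrays. For Chrna5, a nicotinic receptor subunit, the fitted ratio was 0.15 ± 0.11 (n = 12, adjusted p = 0.386), with 5 of 12 replicates above 0 and medians of -0.23 on unswapped and 0.56 on swapped arrays. P2rx4, an ATP-gated channel found on microglia and neurons, read -0.05 ± 0.06 (n = 13, adjusted p = 0.540). Htra2, which shares only its stem with the serotonin receptors, read -0.13 (adjusted p = 0.168).

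The connexins lay at or above 0 with no call. Gja4, a connexin of vessel walls, read 0.16 ± 0.06 (n = 12) with its sign in 10 of 12 replicates (adjusted p = 0.080). Gja1, the main connexin of astrocytes, read 0.00 ± 0.06 (n = 12), and Gjb5, an epithelial connexin, read 0.02 ± 0.05 (n = 12).

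The 4 regions were next tested one by one, to ask where members differed. In cortex limma called 0 of 40 members, against 2.71% of all probes, and 9 members had an unadjusted p under 0.05 (22.5%, against 24.6%). Probe 1 of Trpm7 came nearest, at 0.58 ± 0.16 (n = 4, adjusted p = 0.059 by limma). Kcng1 followed, with replicates of 0.03, -0.85 and -1.14 and a fitted ratio of -0.65 ± 0.18 (n = 3, adjusted p = 0.062 by limma), and it was the only member past 1.5-fold in any region. Kcnq1 (0.50) and Vdac2 (0.35) came next, both at an adjusted p of 0.068. The cortex count turned on the arrays of number 1: without cortex replicate 1 it was 10 (15.7% of all probes), without hippocampus replicate 1 it was 3 (7.16%), and without all arrays of number 1 it was 12 of 38 members (31.6%, against 22.2% of all probes).

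In hippocampus limma also called 0 members, against 0.43% of all probes, with 4 at an unadjusted p under 0.05 (10%, against 13.3%), namely both Clic4 probes, Kcnd2 (0.38) and Kcnh3 (-0.33). In cerebellum it called 0, against 2.25%, with 5 at an unadjusted p under 0.05 (12.5%, against 20%), namely Kcnj12 (-0.27), Vdac2 (0.30), probe 1 of Trpm7 (0.42), Kcnd2 (0.28) and Vdac1 (-0.26). In brain stem-diencephalon it called 0, against 0.3%, with 7 at an unadjusted p under 0.05 (17.5%, against 13.3%). These were led by the fitted ratios of Kcnq1 (0.53) and Gabra3 (0.45 ± 0.14, n = 3, adjusted p = 0.202 by limma). The replicates there read 0.37, 0.88 and -0.28 for Kcnq1 and 0.45, -0.09 and 0.14 for Gabra3. The 0.88 of Kcnq1 includes the repeated array, at 1.82.

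The regions were not shown to differ from each other. The F test of equal ratios in limma called 0 members and 0.0% of all probes, and an unadjusted p under 0.05 was found for 2 members (5.0%, against 4.32%), probe 2 of Clic4 (unadjusted p = 0.015) and Kcnq1 (unadjusted p = 0.049). The ratios of 19 of the 40 members had one sign in all 4 regions. The share over all probes was not computed, so this count is not a result about the members. Among the called probes these were all but Kcnq1, but those calls were made on the mean of the same 4 ratios.

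Proteins that work with channels and receptors were given by a list of 82 genes, of which 26 genes with 43 probes were tested. Of these probes 9 were higher and 2 lower in the mean of the regions, with a median ratio of 0.01, beside the 21.1% of all probes called. Calcineurin, the calcium-dependent phosphatase that acts on many channels, gave 4 of the higher probes, with 0.40 and 0.29 for its catalytic subunit Ppp3ca and 0.42 and 0.48 for Ppp3cb. Nsf, an ATPase of membrane fusion that also binds AMPA receptors, read 0.39 and 0.35, and Slc12a2, the chloride importer NKCC1, read 0.24 on the probe that passed and 0.18 on one that did not. Of the G proteins, 1 probe each of Gnaq (0.27) and Gnai2 (0.16) was higher while their other probes did not pass, and 1 probe of Gnb1 was lower (-0.25). Gabarapl2, a relative of Gabarap, which carries GABA-A receptors to the surface, was lower on 1 of 2 probes (-0.32).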

How the data were processed

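The authors deposited 1 normalized log ratio of the 2 channels per probe and array, read here as log2; the normalization and the log base are not stated in the sources used here. Values ran from -5.06 to 5.48, with array medians of 0.00862 to 0.0609, and 6793 to 13963 probes had a value on an array. Probe symbols came from the platform annotation, which can be old: 9604 probes had 1 symbol, 213 several and 5428 none, and 9496 matched a gene of GRCm38.p6 by Entrez ID, used for names only. Swapped arrays were multiplied by -1, each array was centred on its median, and arrays of one region and number were averaged. Both copies of the repeated array were kept, except where it is said to be left out. Each probe was fitted with a term per region and one for the mean orientation (at least 2 residual degrees of freedom, 8 for a complete probe, prior degrees of freedom 6.20). R 4.3.3 with limma 3.58.1 moderated the variances, Benjamini-Hochberg adjustment ran over 12336 probes at a threshold of 0.05, and the code was tested on simulated data. All p-values come from this test and are two-sided, apart from those of the F test. The only control was the wild-type pool, whose own spread is left out. Every member called is named, with the 3 members of smallest p in each class, both or all probes of a gene, and called genes of the partner list; the rest are named to account for all members. The members and lists were chosen with earlier results of these data known. Channel intensities were not analysed here, and precision is limited by the number of arrays. The targeted gene is not reported here.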

Additional observations from a re-analysis of the deposited data

Results flagged for a closer look

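Cacna2d3, the calcium channel auxiliary subunit, read -0.29 in cortex replicate 1 while the other 3 cortex replicates lay between 0.18 and 0.24. The gap took up 0.89 of the group's range. It was the only value to stand apart in this way among 29 cortex groups checked, and chance alone gives about 1 in 20. The replicate is 1 of the arrays of number 1. Pairs of regions with 2 or more replicates on each side numbered 237 over the members. Of these, 3 had all replicates of one region above 0 and all of the other below 0. The share over all probes was not computed, so this count is not a result about the members. Probe 3 of Trpm7 read 0.12 and 0.00 in hippocampus, against -0.22, -0.21 and -0.01 in cerebellum and -0.42, -0.28 and -0.07 in brain stem-diencephalon. Its fitted ratio in hippocampus was above that in cerebellum by 0.19 and above that in brain stem-diencephalon by 0.26. Kcns3 read -0.08, -0.02 and -0.19 in cerebellum and 0.28 and 0.31 in brain stem-diencephalon, a fitted difference of -0.36 for cerebellum minus brain stem-diencephalon. These pairs were not tested by themselves, and limma's F test over the 4 regions gave unadjusted p-values of 0.277 for probe 3 of Trpm7 and 0.400 for Kcns3.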

How the results depend on the processing

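No called member changed sign under any alternative, and the 42 sign changes among 934 recomputed member values were in probes called under neither setting. In the mean of the regions, 7 members were called with all arrays, 3 without the repeated array, 11 without the unswapped arrays of number 1, and 2 to 11 when 1 replicate was left out. In cortex, where 0 were called, the counts were 1 (Kcnq1, with 2.42% of all probes), 8 (15.2%), and 0 to 10. In hippocampus (1.85% of all probes) and cerebellum (9.16%) 2 members each were called without the unswapped arrays of number 1, and none when 1 replicate was left out. Same-numbered replicates had residual correlations between regions of 0.21 to 0.74 for number 1, -0.04 to 0.35 for number 2 and -0.18 to 0.28 for number 3, with a median of -0.14 between different numbers. Not every pair was above 0.1, so the main fit did not pair samples by number, although replicates of number 1 deviated together. That cut cannot show that the samples are unpaired, and the main p-values do not allow for a shared effect of number. With the replicate block, 10 of 38 members were called in the mean (27.9% of all probes), 6 in cortex (12.5%), 2 in hippocampus (3.51%) and 1 in cerebellum (8.01%). In the mean it added Scn2b (-0.36), Kcng1 (-0.38), Grina (-0.20) and Kcnab3 (0.16) and lost Vdac3 (0.11). An alternative chosen after seeing the data left out all arrays of number 1 and gave 10 members in the mean (29.2% of all probes), 12 in cortex (22.2%), 3 in hippocampus (4.01%) and 1 in cerebellum (5.64%). The other settings (no centring, arrays scaled to one spread, robust moderation, a stricter or no filter on arrays, probes averaged per gene, no orientation term) gave 5 to 7 in the mean. The members called were not always the same. Without the orientation term 6 were called (25.4% of all probes), with Kcnq1, Kcnj12 and Kcnh3 lost and Kcnab3 and Vdac1 added. In brain stem-diencephalon and in the test of difference between regions the count was 0 in every setting. The causes were not tested. The count of all probes called in the mean, 2597, and its percentage moved with the same arrays: 13.4% without the repeated array and 34.5% without the unswapped arrays of number 1.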
